A study of Rattus norvegicus with 15 samples.

Results

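The aquaporins are the channel proteins through which water, and for some members glycerol, crosses cell membranes. They were examined in testes of irradiated and control rats through every probe set that the array's annotation assigns to Aqp1, Aqp2, Aqp3, Aqp4, Aqp5, Aqp7, Aqp8, Aqp9 or Aqp11 and to no other gene. These are 9 of the 14217 genes named by a single symbol, and 12 of the 31099 probe sets on the array, 3 for Aqp4, 2 for Aqp1 and 1 for each of the other genes. RNA had been measured on Affymetrix 3' expression arrays, 1 array per sample, in 5 irradiated and 10 control samples. The irradiated testes came from LBNF1 rats, an F1 hybrid laboratory strain, aged 25 to 27 weeks, after a dose of 6 Gy to the lower abdomen. The control testes came from LBNF1 rats of the same age and are labelled as taken before irradiation. One treatment protocol, which describes the irradiation, is given for all samples, and the groups are told apart by their source labels. No label states how long after irradiation the testes were collected. The samples are labelled as biological replicates without saying whether each is another animal, so p-values reflect only how far these samples differ, which may be technical.

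Each aquaporin subunit forms its own pore, and the subunits assemble in fours in the membrane. Aqp1, Aqp2, Aqp4 and Aqp5 are mainly water channels, Aqp3, Aqp7 and Aqp9 also pass glycerol, Aqp8 passes water, ammonia and hydrogen peroxide, and Aqp11 is a distant member found mainly on the endoplasmic reticulum. In the testis, Sertoli cells secrete the fluid that fills the tubules, and spermatids lose much of their volume as they elongate. In rat testis Aqp7 is known from spermatids and Aqp9 from Leydig cells, while Aqp1 is a water channel of endothelium and red blood cells.

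Aqp7 and Aqp11 lost nearly all of their signal in irradiated testes, Aqp1 had a moderately lower one, and Aqp8 and Aqp9 had moderately higher ones, which turned lower when arrays were centred on Sertoli cell markers. A probe set was tested if its log2 signal reached the median of its array in at least 5 of the 15 arrays. By that filter 5 of the 12 aquaporin probe sets were tested, 1 each for Aqp1, Aqp7, Aqp8, Aqp9 and Aqp11. All 5 passed an adjusted p of 0.05 in limma (Benjamini-Hochberg over all 18711 probe sets tested), 2 higher and 3 lower in irradiated testes. Over all probe sets tested, 83.4% passed, 49.0% higher and 34.3% lower, so passing the test did not set the aquaporins apart. Aqp7 and Aqp11 passed the filter through the control arrays, where they were high, and 4 genes, Aqp2, Aqp3, Aqp4 and Aqp5, had no tested probe set. The median change of the 5 was -0.50 (log2, irradiated minus control), beside 0.30 for all probe sets tested. Testis RNA pools all cell types, so that fewer cells of a type and less RNA per cell cannot be told apart.

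The DNA upstream of the tested genes is shown because these genes moved in opposite directions. Of the 9 genes, 8, all but Aqp7, were found in a RefSeq promoter table of the GRCr8 assembly. The 250 bases before the start site are printed for the 4 tested genes it holds, with capitals marking matches on either strand. The motifs searched were the TATA box TATAAA, the E-box CACGTG, the CCAAT box (the letters CCAAT), the core of a cyclic AMP response element (TGACG) and a site type bound by steroidogenic factor 1 (AAGGTCA).
Aqp11, chr1:161467919-161468168, minus strand: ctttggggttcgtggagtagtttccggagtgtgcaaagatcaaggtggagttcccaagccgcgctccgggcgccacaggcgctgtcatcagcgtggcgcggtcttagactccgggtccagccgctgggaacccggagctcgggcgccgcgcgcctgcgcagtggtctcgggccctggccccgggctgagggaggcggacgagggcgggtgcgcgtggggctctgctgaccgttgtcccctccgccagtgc
Aqp8, chr1:187424193-187424442, plus strand: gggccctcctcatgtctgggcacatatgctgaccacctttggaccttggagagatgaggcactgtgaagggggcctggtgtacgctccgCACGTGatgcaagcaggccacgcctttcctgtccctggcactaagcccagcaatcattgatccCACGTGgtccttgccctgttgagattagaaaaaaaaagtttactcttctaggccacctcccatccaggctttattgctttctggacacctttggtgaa
Aqp9, chr8:80718189-80718438, minus strand: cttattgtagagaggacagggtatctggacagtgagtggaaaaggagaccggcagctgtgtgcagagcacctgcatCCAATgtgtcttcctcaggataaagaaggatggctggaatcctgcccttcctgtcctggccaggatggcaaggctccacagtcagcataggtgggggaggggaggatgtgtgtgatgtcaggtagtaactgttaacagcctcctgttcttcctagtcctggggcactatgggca
Aqp1, chr4:85812534-85812783, plus strand: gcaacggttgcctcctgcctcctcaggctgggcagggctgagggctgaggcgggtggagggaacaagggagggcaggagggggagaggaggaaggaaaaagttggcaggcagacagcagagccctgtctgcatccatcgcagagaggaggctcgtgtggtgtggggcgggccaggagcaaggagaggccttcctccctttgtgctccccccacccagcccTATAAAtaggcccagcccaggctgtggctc
The Aqp11 window held none of the 5 motifs and had 28 CG dinucleotides and 70.8% G and C, against medians of 5 and 51.2% over the 33469 windows of the table. Aqp8 held CACGTG at 2 places, a motif present in 5.59% of all windows. Aqp9 held 1 CG dinucleotide and 1 match to CCAAT, which is found in 34.0% of windows. Aqp1 held TATAAA from base -30 to base -25, a motif present in 12.9% of windows. TGACG (18.2% of windows) and AAGGTCA (3.99%) had no match in these 4, and none of the matches overlapped. A match is a run of letters and was not tested for binding.

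**Figure D1:**
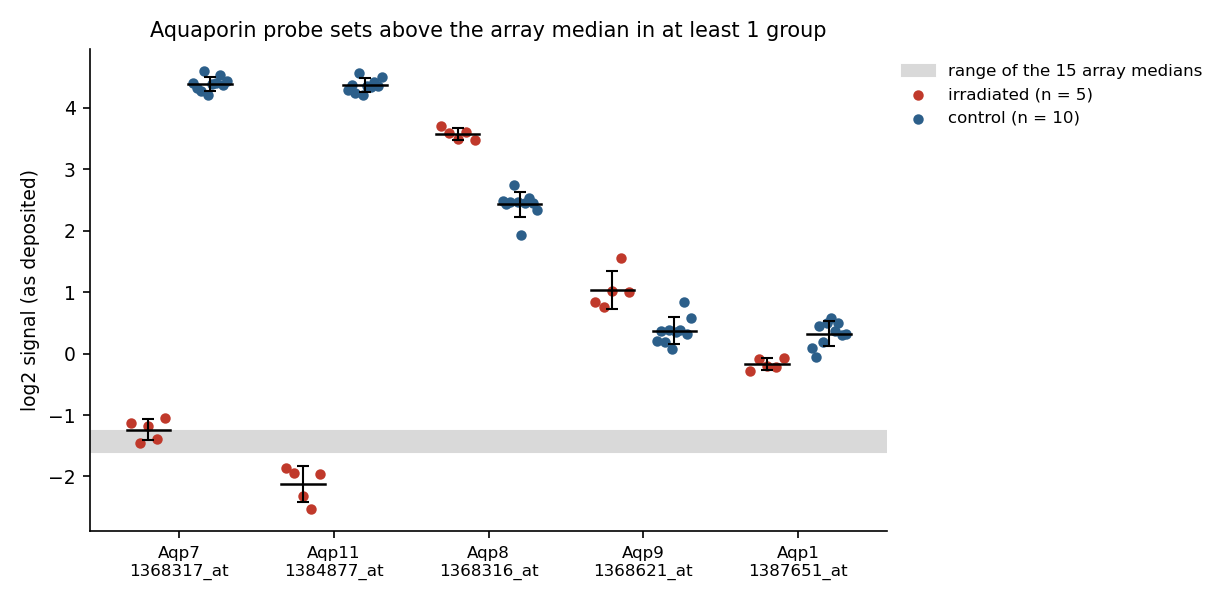
Log2 signal as deposited (vertical axis) of the 5 tested aquaporin probe sets in each irradiated (red, n = 5) and control (blue, n = 10) array; bars are means with SD and the grey band spans the 15 array medians. Aqp7 and Aqp11 lie near 4.4 in all control arrays and near or below the band in all irradiated ones, Aqp8 as deposited lies higher in every irradiated array (lower after centring on Sertoli cell markers), and the Aqp9 groups overlap.

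Aqp7, the glycerol-passing channel of rat spermatids, had log2 signals of -1.13, -1.45, -1.18, -1.39 and -1.06 in irradiated replicates 1 to 5 (probe set 1368317_at). In control testes its log2 signal had a lowest value of 4.21, a median of 4.39 and a highest value of 4.59. Every irradiated array lay at least 5.26 log2 units below every control array, and within each group the values were tight. The change was -5.63 ± 0.09 (SE; 95% interval -5.82 to -5.45; limma adjusted p = 6.11e-18), which leaves 2.02% of the control signal. Only 3 of the 5 irradiated arrays had Aqp7 at or above the array median. The remaining signal is near that cut-off, below which levels were treated as not measured.

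Aqp11, the endoplasmic reticulum aquaporin, had log2 signals of -1.86, -1.95, -2.31, -2.54 and -1.96 in irradiated replicates 1 to 5 (1384877_at). The control values ran from 4.20 through a median of 4.35 to 4.57. All 5 irradiated values lay below their array medians, where only a bound on the level is given. With each irradiated array set at no less than its median, Aqp11 was at least 51.0-fold lower in the irradiated group. Its measured means of -2.12 ± 0.29 (SD, n = 5) in irradiated and 4.36 ± 0.11 (SD, n = 10) in control testes differed by -6.49 ± 0.11 (SE; limma adjusted p = 1.33e-17).

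Within the control group Aqp7 and Aqp11 also varied together. Their Pearson correlation was 0.87 over the 10 control arrays and 0.38 over the 5 irradiated arrays, where both signals were low, and the arrays share scaling and tissue make-up. Among the other pairs of tested aquaporins the control correlations ran from -0.41 to 0.69, the highest being that of Aqp7 with Aqp9.

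The genes whose pattern over the 15 arrays was most like that of Aqp7 were Gapdhs, the sperm form of a glycolytic enzyme, at a Pearson correlation of 1.00, followed by Cox7b2 and Samd13. For Aqp11 they were Cox7b2, Tmbim7 and Bspry. These correlations, searched over 10836 genes, are dominated by the gap between the groups. With group means removed they were 0.92 for Gapdhs with Aqp7, 0.81 and 0.79 for Cox7b2 and Samd13 with Aqp7, and 0.80, 0.83 and 0.85 for Cox7b2, Tmbim7 and Bspry with Aqp11. Of these genes only Gapdhs had an irradiated mean above that of the array medians. Picking the highest of 10836 genes favours high correlations, and the genes most like Aqp8, Aqp9 and Aqp1 come from the same search.

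Markers of the germ cells that form sperm moved in the same direction as Aqp7 and Aqp11. All 16 tested spermatid markers fell, as did all 9 tested spermatocyte markers. Of them 15 and 9 passed the filter only through the control arrays, which favours a fall. The filter left out none of the 16 spermatid markers on the array. Of 10 spermatocyte markers it left out only Spo11, with measured means of -6.52 in irradiated and -2.42 in control testes. Of all 10841 genes tested, 85.5% passed, 47.6% higher and 37.9% lower in irradiated testes, and the groups did not overlap in 69.5%. The summed signal of the 16 spermatid markers on the array was 1.29 to 2.46 (log2) in irradiated and 8.71 to 9.27 in control arrays, and that of 10 spermatocyte markers was 0.42 to 0.76 in irradiated and 6.47 to 7.01 in control arrays. Relative to the spermatid median of each array, Aqp7 changed by 2.33 and Aqp11 by 1.48. These were 0.72 and 0.66 with signals below the array median raised to it. Relative to the spermatocyte median they changed by -0.54 and -1.39, and by -1.97 and -2.03 with signals so raised. The part that the loss of germ cell markers has in the aquaporin signals was not tested. For adipocytes, where Aqp7 is also found in rodents, the summed signal of 7 markers was 1.23 to 1.77 in irradiated and 0.12 to 0.87 in control arrays. Only Cfd and Fabp4 had higher measured means in irradiated testes, Cfd at 0.88 against -2.02 in control testes. The other means were lower in irradiated testes, and all markers but Cfd lay below the median in every irradiated array. Cfd was at least 5.03-fold higher in irradiated testes (measured change 2.90), and Plin1 did not pass (measured change -0.40). Cfd passed the filter only through the irradiated arrays and Plin1 only through the control arrays. Adipoq, Lep, Fabp4, Cidec and Pck1 were not tested. The part of adipocytes in the Aqp7 signal was not tested.

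Aqp8, a channel for water and small neutral molecules, had log2 signals of 3.70, 3.59, 3.49, 3.61 and 3.47 in irradiated replicates 1 to 5 (1368316_at). In control testes the lowest was 1.93, the median 2.46 and the highest 2.74. The groups did not overlap, with a gap of 0.73, which was the case for 65.5% of all probe sets tested. The change was 1.15 ± 0.10 (SE; 95% interval 0.92 to 1.37; limma adjusted p = 2.43e-08), or 2.21-fold higher in irradiated testes, but -0.68 when arrays were centred on Sertoli cell markers.

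All 14 tested Sertoli cell markers rose, by 0.49 to 2.99, and their median, taken in each array, changed by 1.82. None of these 14 passed the filter through 1 group alone. Of 17 on the array, Amh, Gdnf and Rhox5 were not tested. Measured means of Rhox5 were -4.03 in irradiated and -1.83 in control testes. Those of Amh were -3.42 and -3.19, and those of Gdnf -3.40 and -4.33. Espn, Inhbb and Inha rose less than Aqp8, by 0.49, 0.97 and 1.04. Relative to that Sertoli median Aqp8 changed by -0.68, which is the same calculation as that centring. The groups did not overlap (exact permutation p = 0.000333, the smallest that the 3003 divisions of the arrays can give). Adjusted over 35 comparisons of an aquaporin with a marker list, this p was 0.000353. All 35 gave it except those of Aqp8 and Aqp9 with endothelial markers, so it did not set Aqp8 apart. Relative to endothelial markers Aqp8 changed by -0.18 with overlapping groups (exact permutation p = 0.300). Under Sertoli centring the median change of all probe sets was -1.53, and 14131 of the 16372 called were lower. The 35 comparisons were chosen after the values were seen. The genes most like Aqp8 over the 15 arrays were Adgrg1, an adhesion receptor, Anapc4, a subunit of the anaphase-promoting complex, and Sort1, a sorting receptor, at Pearson correlations of 0.99 each, and 0.87, 0.88 and 0.87 with group means removed.

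Aqp9, which passes water, glycerol and urea, had log2 signals of 0.84, 0.75, 1.02, 1.56 and 1.00 in irradiated replicates 1 to 5 (1368621_at). The control values had a lowest of 0.07, a median of 0.36 and a highest of 0.85. The groups overlapped: 3 of 5 irradiated arrays lay above all control arrays, and irradiated replicate 4 was the highest. The change was 0.66 ± 0.14 (SE; 95% interval 0.37 to 0.95; limma adjusted p = 0.000265), or 1.58-fold. It depended on the scaling: it was 0.33 after quantile normalization (adjusted p = 0.0434), 0.29 with arrays centred on their 75th percentile (adjusted p = 0.0719) and -1.16 with arrays centred on Sertoli cell markers.

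All 8 Leydig cell markers rose, by 1.21 to 4.06, among them Insl3, a peptide hormone of these cells, at 4.06 in irradiated and 0.50 in control testes, and the steroidogenic enzyme Cyp17a1, at 4.66 in irradiated and 0.60 in control testes. The list median changed by 2.79, and Aqp9 changed by -2.13 relative to it (exact permutation p = 0.000333, adjusted p = 0.000353 over 35 comparisons). Kctd1, Bcl9 and Med12 had the patterns most like Aqp9 over the 15 arrays, at Pearson correlations of 0.92, 0.91 and 0.90, and 0.77, 0.72 and 0.71 with group means removed. No epididymal or efferent duct marker, tissues where Aqp9 is abundant in rat, reached the array median in every array of either group. Of 6 on the array, 1 was tested (Ros1, lower in irradiated testes), and their summed signal was -0.32 to 0.13 in irradiated and 0.14 to 0.98 in control arrays.

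Aqp1, the water channel of endothelium and red blood cells, had log2 signals of -0.29, -0.09, -0.20, -0.22 and -0.07 in irradiated replicates 1 to 5 (1387651_at). In control testes they ran from -0.06 through a median of 0.35 to 0.58. The groups did not overlap, but the gap was only 0.0069 log2 units. The change was -0.50 ± 0.10 (SE; 95% interval -0.72 to -0.28; limma adjusted p = 0.000302), or 70.9% of the control signal. It was -0.85 after quantile normalization, -0.87 with arrays centred on their 75th percentile and -0.32 with a pseudocount. The other Aqp1 probe set, 1369625_at, lay below the array median in all 15 arrays, at -2.60 ± 0.30 (SD, n = 5) in irradiated and -2.32 ± 0.27 (SD, n = 10) in control testes, with overlapping groups.

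The summed signal of 11 endothelial markers was 3.30 to 3.57 in irradiated and 1.75 to 2.06 in control arrays. Of the 11, the filter left out only Plvap, with measured means of -2.90 in irradiated and -2.70 in control testes. Of the 10 tested, 9 rose and 1 did not pass. Among these 10, 6 passed the filter only through the irradiated arrays, which favours a rise. The other 4 were Cldn5, a tight junction protein (2.08), Tek, a receptor for angiopoietins (1.14), Vwf, von Willebrand factor (0.46), which rose, and Egfl7, with a change of -0.00045. Of 3 red blood cell markers tested, 2 rose and 1 fell. The globin gene Hbb had 2.84 in irradiated and 0.60 in control testes, and Alas2, the first enzyme of erythroid heme synthesis, had 2.19 in irradiated and 0.78 in control testes. Slc4a1, the red cell anion exchanger, fell (measured change -1.44, limma adjusted p = 0.00566), and Epb42 and Ahsp were not tested. Slc4a1 passed the filter only through the control arrays, which favours a fall. It lay below the median in all irradiated arrays, was at least 1.26-fold lower, and its groups overlapped. Slc4a1 is also in the list of salt and bicarbonate transporters. The part of these cell types in the Aqp1 signal was not tested. The summed signal of 8 peritubular and smooth muscle markers was 4.72 to 5.14 in irradiated and 2.98 to 3.43 in control arrays, and that of 10 macrophage markers was 4.29 to 4.49 in irradiated and 1.58 to 2.02 in control arrays. That of 9 spermatogonial markers was 2.86 to 3.37 in irradiated and 2.62 to 2.88 in control arrays, but its members differed. Of 6 tested, 3 rose, 1 fell and 2 did not pass. Kit passed the filter only through the irradiated arrays and was at least 3.45-fold higher in irradiated testes. Gfra1 passed it only through the control arrays and was at least 2.25-fold lower (measured change -1.85, and -0.27 in another probe set). The genes most like Aqp1 were Prkcz, Ryr1 and Necab1, at Pearson correlations of 0.94 each, and 0.85, 0.81 and 0.81 with group means removed. Their irradiated means of -4.61, -2.90 and -1.93 lay below the mean of the irradiated array medians, -1.31, where levels were treated as not measured.

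**Figure D2:**
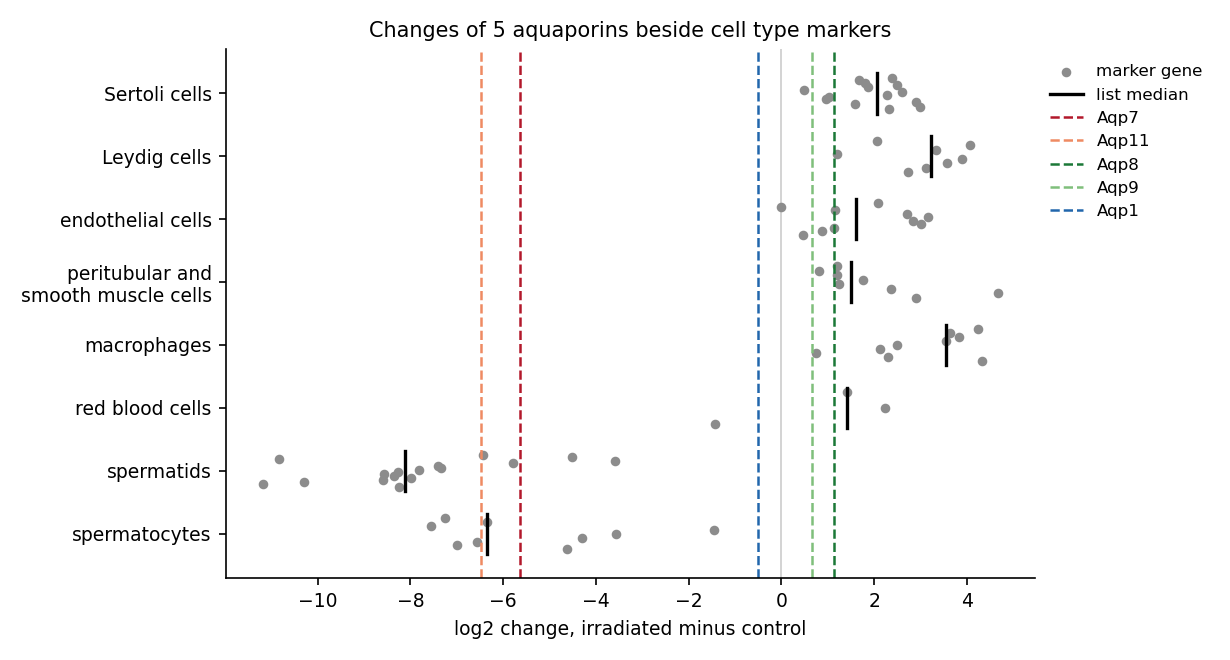
Log2 change (irradiated minus control, horizontal axis) of each tested marker gene (grey points) with the list median (black bar) for 8 cell types, and of 5 aquaporins (dashed lines). Aqp7 and Aqp11 lie among the germ cell markers, Aqp8 and Aqp9 lie below the medians of the Sertoli and Leydig lists, and Aqp1 lies below the 10 endothelial markers, 6 of which passed the filter only through the irradiated arrays.

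**Figure D3:**
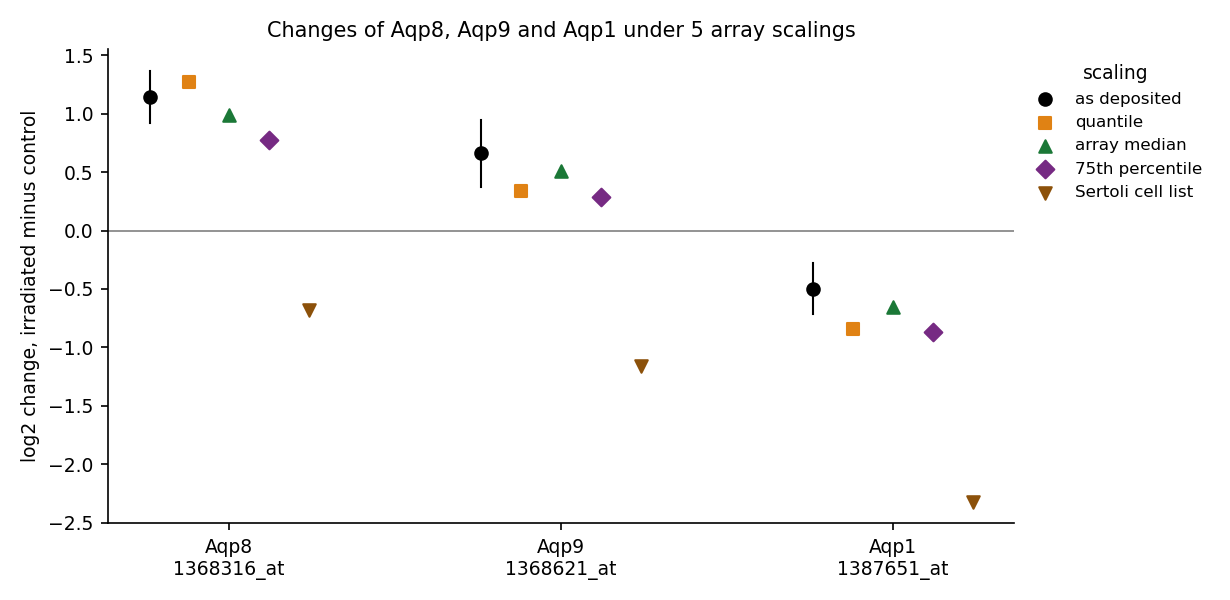
Log2 change (irradiated minus control, vertical axis) of Aqp8, Aqp9 and Aqp1 under 5 scalings of the arrays; the lines on the first points are 95% intervals. Aqp1 stays below 0 under all 5, while Aqp8 and Aqp9 turn from 1.15 and 0.66 as deposited to -0.68 and -1.16 with arrays centred on Sertoli cell markers.

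The other 7 aquaporin probe sets lay below the array median in all 15 arrays, so the size of any change was treated as not measured. Their deposited values are given as a description, and none of the 7 is called higher or lower from them. Aqp2, the vasopressin-regulated channel of the kidney, was the only one of the 7 whose groups did not overlap, at -5.08, -4.43, -4.47, -4.57 and -4.77 in irradiated replicates 1 to 5 (1368568_at), against a lowest of -3.99, a median of -3.68 and a highest of -3.06 in control testes. Groups did not overlap in 16.1% of the 12331 probe sets left untested, and in 5.37% they did so with irradiated arrays lower. Aqp3, which passes glycerol, ran from -6.94 to -5.98 in irradiated and from -6.61 to -4.08 in control testes. Aqp5, a channel of glands and lung, ran from -4.58 to -2.89 in irradiated and from -4.89 to -2.29 in control testes.

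The 3 probe sets of Aqp4, the water channel of brain astrocytes, overlapped between groups in each case. Their means were -3.75 ± 1.11, -6.05 ± 1.27 and -5.22 ± 1.43 in irradiated testes (SD, n = 5), against -3.01 ± 1.01, -4.16 ± 0.84 and -3.26 ± 0.59 in control testes (SD, n = 10), for 1368981_at, 1372190_at and 1387397_at. The SD among irradiated arrays ran from 1.11 to 1.43 log2 units for these, whereas for the 5 tested aquaporins it ran from 0.09 to 0.31. Without the filter, 2 of the 3 would pass (limma adjusted p = 0.00411 for 1372190_at and 0.00194 for 1387397_at), and 1 would not (0.235). So would 20745 of the 31099 probe sets on the array, of which the 57 AFFX ones were not tested.

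**Figure D4:**
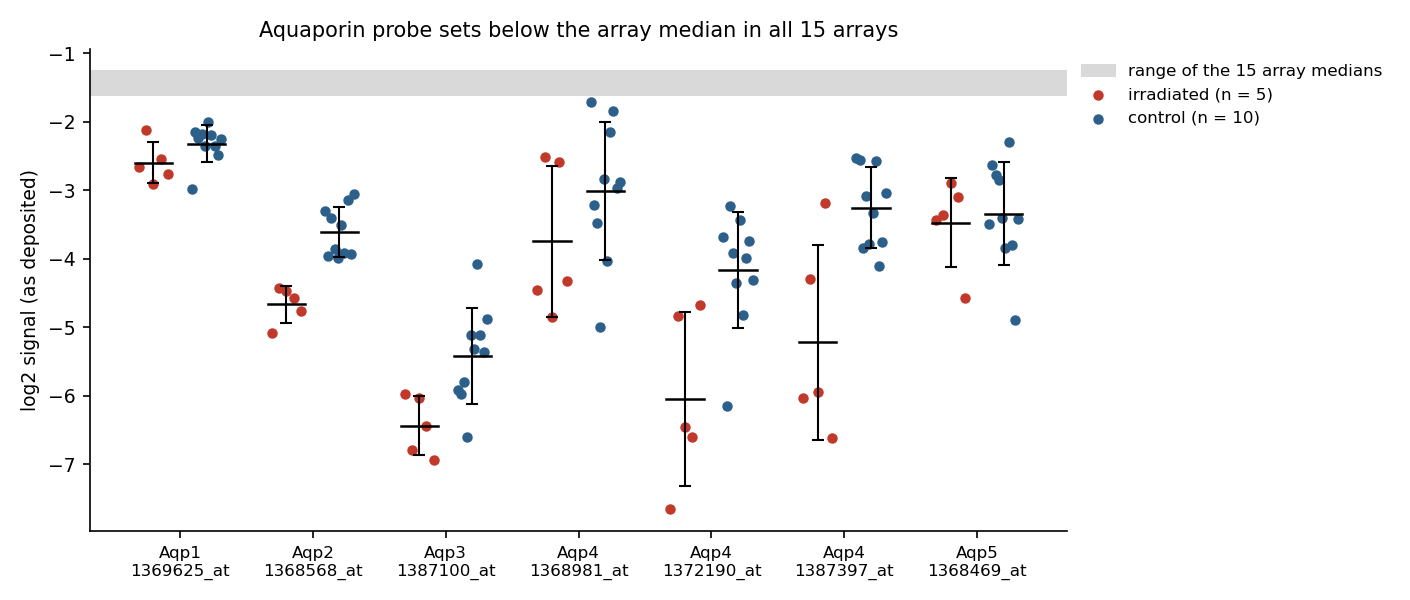
Log2 signal as deposited (vertical axis) of the 7 untested aquaporin probe sets in each irradiated (red, n = 5) and control (blue, n = 10) array; bars are means with SD and the grey band spans the 15 array medians. All points lie below the band, and the groups overlap for every probe set except that of Aqp2.

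Genes that work with aquaporins were read from 6 lists, with 1 probe set per gene. Over the genes tested the median change was 0.20, and 85.5% passed. Genes that passed the filter through 1 group alone, which favours a difference, were 0 in the cell volume list, 3 each in the salt and carbonic anhydrase lists, 5 of 9 in the glycerol list, 3 of 3 in the urea list and 2 of 12 in the regulation and anchoring list. Channels and transporters of cell volume and osmolytes were mostly higher: 12 of 15 tested rose, 1 fell and 2 did not pass, with a median of 1.30 that turned to -0.52 with arrays centred on Sertoli cell markers. Lrrc8d, a subunit of the volume-regulated anion channel, rose by 2.91 ± 0.17 (SE). Slc38a2, an amino acid transporter induced by hypertonicity, rose by 2.31 ± 0.09, and Akr1b1, which makes the osmolyte sorbitol, by 2.14 ± 0.13 (0.47 in another probe set).

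Transporters of salt and bicarbonate, whose transport water follows, rose in 8 of 15 tested, fell in 4 and did not pass in 3. Their median was 0.49, 0.28 with dim genes at their bounds, and -1.33 with arrays centred on Sertoli cell markers. Atp1a4, the sodium pump subunit of sperm, was at least 32.7-fold lower in irradiated testes, and Cftr, a chloride and bicarbonate channel, at least 1.97-fold lower. Atp1b2, another sodium pump subunit, rose by 2.85 ± 0.10 (SE; 4.79 in another probe set). Of 5 tested carbonic anhydrases, which make bicarbonate, 1 fell and 4 did not pass in the brightest probe set of each. Another probe set of Car2 changed by 2.00, beside 0.26 in its brightest. The 3 tested probe sets of Car11 ran from -0.20 to 1.82. The one that fell, Car8, a related protein without the enzyme's activity, was at least 11.1-fold lower. That list's median of 0.26 turned to -0.074 after quantile normalization, and to -0.11 and -1.56 with arrays centred on their 75th percentile and on Sertoli cell markers.

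Genes of glycerol handling, which bear on Aqp3, Aqp7 and Aqp9, divided evenly: 4 of 9 tested rose, 4 fell and 1 did not pass. The median was -0.40, and 0.09 with dim genes at their bounds. Gpd2, the mitochondrial glycerol 3-phosphate dehydrogenase, was at least 23.7-fold lower in irradiated testes, and Mgll, which frees glycerol from monoacylglycerol, fell by 3.79 (a change of -5.83 in another probe set). Lpl, lipoprotein lipase, was at least 2.29-fold higher. Of 3 tested genes of urea transport and arginine hydrolysis, 1 rose and 2 fell (median -0.34, -0.12 with dim genes at their bounds): the urea transporter Slc14a1 was at least 3.99-fold higher, while Slc14a2 fell by 0.82 (a change of -3.53 in another probe set).

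Of 12 tested genes that regulate or anchor aquaporins, 8 rose and 4 fell, with a median of 1.17, 1.11 with dim genes at their bounds and -0.65 with arrays centred on Sertoli cell markers. Akap1, an anchor of protein kinase A at mitochondria, fell by 4.44 ± 0.09 (SE), and its 3 probe sets ran from -5.86 to -0.66. Msn and Rdx encode moesin and radixin, which tie membrane proteins to actin. Msn rose by 2.25, whereas Rdx fell by 2.44 in its brightest probe set while its 4 probe sets ran from -2.74 to 2.04. The kidney vasopressin receptor gene Avpr2 lay too low to be tested, and Avpr1a, named after its values were seen, was at least 3.62-fold higher.

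**Figure D5:**
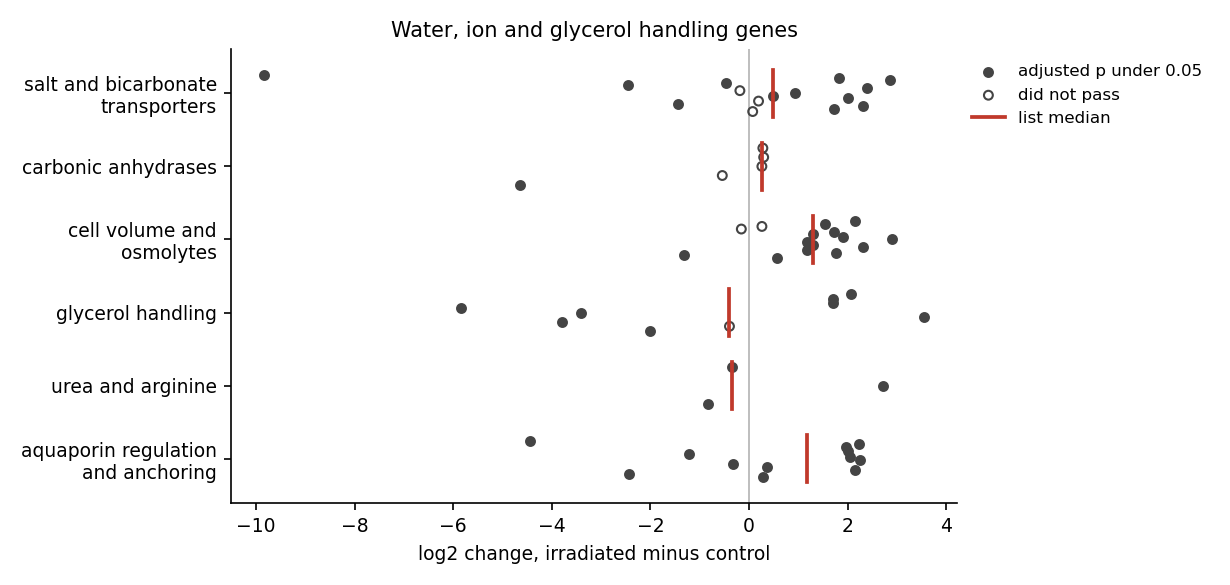
Log2 change (irradiated minus control, horizontal axis) of each tested gene of 6 lists of water, ion and glycerol handling, filled where the adjusted p is under 0.05, with the list median in red. Changes of dim genes are measured means, not bounds. The cell volume list lies mostly above 0, with a median of 1.30, while the glycerol list is split between 4 higher and 4 lower genes.

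The arrays differed in level between the groups. The array median was -1.31 ± 0.05 in irradiated (SD, n = 5) and -1.47 ± 0.07 in control arrays (SD, n = 10; exact permutation p = 0.000666), while irradiated arrays had a 75th percentile of 0.14 ± 0.06 and control arrays one of -0.24 ± 0.05 (exact permutation p = 0.000333). The difference between the actin probe sets at the 2 ends of the transcript, a measure of RNA integrity, was 1.02 ± 0.10 in irradiated and 1.02 ± 0.42 in control arrays (exact permutation p = 0.967). Control replicates 6, 7 and 8 had the highest values of it, 1.89, 1.37 and 1.44. Without these 3 arrays the changes were -5.61 for Aqp7, -6.48 for Aqp11, 1.09 for Aqp8, 0.73 for Aqp9 and -0.43 for Aqp1. Of the markers used to check the labelled tissue, 6 of 8 for Leydig cells and 12 of 17 for Sertoli cells were at or above the array median in all 15 arrays.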

How the data were processed

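RNA of 15 testis samples had been labelled from 10 µg of total RNA and hybridised to 1 array each. The authors deposited log2 signals, and the submitters' processing notes name MAS5. No label gives their scaling or log step. Spike-ins served to find the base of the logarithm: they rose by 0.93 ± 0.03 (irradiated, SD) and 0.89 ± 0.03 (control) units per doubling of nominal concentration. The zero point is unknown. Unused columns numbered 0. Precision is limited by the number of arrays.

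Gene names come from the platform's annotation. Of 31099, 20832 had 1 gene symbol, 436 several and 9831 none in the table used. The 57 AFFX control probe sets were not tested. The test of irradiated against control arrays was limma's (version 3.58.1, under R 4.3.3), with lmFit and then eBayes, no covariate and a threshold of 0.05 on the adjusted p. It was checked on simulated data. Tests are 2-sided. For lists, the tested probe set with the highest mean stood for a gene. A probe set was called dim in a group if all that group's arrays had it below their medians, and "at least N-fold" sets the brighter mean against the array medians or the dim values where higher. The same floor served genes with a group mean below the medians. Named were all aquaporin probe sets, the 3 most similar genes of each tested one, and up to 3 genes per list with the largest changes, passed and without overlap between groups. Other genes were named after their values were seen. The members and lists were chosen with earlier results of these data known. Alternatives changed the scaling, the filter, a pseudocount, the variance model, array weights, a replicate block and the arrays included.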

Additional observations from a re-analysis of the deposited data

Results flagged for a closer look

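Of 24 groups of values (12 aquaporin probe sets in irradiated and control arrays), 2 held an array far from the others of its group by Dixon's criterion, which chance alone does in about 1 in 20 groups. Aqp8 in control replicate 6 was 1.93, whereas the other control arrays ran from 2.33 to 2.74. This array also had the largest difference between the actin probe sets, 1.89, and without it the Aqp8 change was 1.09 in place of 1.15. The dim Aqp1 probe set 1369625_at was -2.98 in control replicate 1, whereas the other control arrays ran from -2.49 to -2.004. The median of that array, -1.61, was the lowest of the 15.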

How the results depend on the processing

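Over 26 alternatives each, the falls of Aqp7, Aqp11 and Aqp1 kept their direction and passed, with changes from -7.46 to -4.69, -8.31 to -5.04 and -2.32 to -0.32. Aqp8 kept its rise in 25 of 26 (0.77 to 1.27) and turned to -0.68 (adjusted p = 8.38e-06) under centring on Sertoli markers. Aqp9 kept its rise in 24 of 26 (0.33 to 0.79), missed the threshold at 0.29 under 75th percentile centring, and turned to -1.16 under centring on Sertoli markers. Without the filter, 9 of 12 aquaporin probe sets passed instead of 5, and the 4 added, for Aqp2, Aqp3 and 2 for Aqp4, lay below the array median everywhere. Of the 31099 probe sets on the array (57 AFFX ones not tested), 20745 passed without the filter, so passing did not set the aquaporins apart. With 1 array left out at a time 5 passed each time, with changes of -0.54 to -0.47 for Aqp1 and 0.53 to 0.73 for Aqp9. Over all probe sets 15598 passed, 15217 to 15649 with 1 array left out, and 9442 when the filter was raised to the 75th percentile, which tests fewer. Of the called probe sets 58.8% were higher in irradiated testes, 47.8% with centring on the 75th percentile and 13.7% with Sertoli centring. The median change of all probe sets was 0.30 as deposited, and -0.078 and -1.53 with these. Medians of lists turned under the filter at the 75th percentile for carbonic anhydrases (-4.64) and urea genes (0.95), under quantile normalization (-0.074) and 75th percentile centring (-0.11) for carbonic anhydrases, and under Sertoli centring for salt transporters (-1.33), carbonic anhydrases (-1.56), cell volume genes (-0.52) and regulation and anchoring (-0.65). Same-numbered irradiated and control arrays shared only a number, with correlations of their deviations from -0.047 to 0.069. With the replicate number as a block, 15123 probe sets and the same 5 aquaporins passed. Taking the mean of a gene's tested probe sets could change nothing, since each aquaporin had 1. The cause of these shifts was not tested. The zero point of the scale is unknown, and signals below the array median limit what can be said of 7 of the 12 probe sets.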
